A study of Mus musculus with 79 samples.

Results

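The 6 Iroquois genes of the mouse, Irx1 to Irx6, were followed in the adult hypothalamus of mice with a mutated PWWP domain of the DNA methyltransferase DNMT3A. They were taken by name from the table of expression, where they are 6 of 25965 genes, and their promoters, gene bodies and clusters were then read from the table of histone marks. Expression was measured by RNA-seq in 5 wild-type (+/+) and 4 Δ/D329A mice, and H3K4me3, H3K27me3, H3K36me3 and input by native ChIP-seq in 3 mice of each genotype, all aged 14 weeks. The whole series holds 79 samples.

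In both genotypes each library came from the hypothalamus of 1 animal on the C57BL/6Babr background, and in the ChIP-seq the 4 libraries of a number came from the same animal. The study gives the mice of the ChIP-seq as male. Its legends give those of the RNA-seq as female in one place and as male in another, and the labels give no sex. The +/+ mice carry no altered Dnmt3a allele. In Δ/D329A mice the maternal allele (Δ) lacks exon 18, removed in the oocyte by Cre under the Zp3 promoter, and the paternal allele, with the D329A substitution of exon 8, is the only functional copy. The genotypes therefore differ in 2 alleles, and an effect of D329A and of the lower dose of Dnmt3a cannot be told apart between them. A bulk tissue was measured, in which fewer cells of a type and less RNA or mark per cell cannot be told apart.

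The Iroquois genes encode homeodomain transcription factors of the TALE class that pattern the neural tube, the brain, the heart and the limbs. They lie in a pair of clusters of 3 genes that arose by duplication. Irx1, Irx2 and Irx4 form the cluster of chromosome 13, and Irx3, Irx5 and Irx6 that of chromosome 8, next to Fto, whose introns hold variants linked to body weight and regulatory elements that contact Irx3. Genes of this kind are held silent outside their domain of expression by Polycomb, which deposits H3K27me3. Promoters with H3K27me3 and H3K4me3, the mark of active or poised starts, are called bivalent. H3K36me3 covers the bodies of transcribed genes. In biochemical work cited by the study, the PWWP domain of DNMT3A bound H3K36me2 and H3K36me3, and D329A abolished this binding. The study describes the function of this interaction as untested in vivo before its own work.

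In GRCm38 the cluster of chromosome 13 spans 1311.7 kb from the first to the last edge of its genes, with Irx1 at 71957921 to 71963723 on the minus strand, and Irx2 at 72628820 to 72634196 and Irx4 at 73260497 to 73269620 on the plus strand. The cluster of chromosome 8 spans 882.4 kb, with Irx3 at 91798511 to 91802067 on the minus strand, and Irx5 at 92357796 to 92361454 and Irx6 at 92674289 to 92680956 on the plus strand. Irx5 shares its start region with Crnde (4933436C20Rik in the table), a long non-coding RNA on the opposite strand that starts 1676 bases away and ends at 92326038. Irx3 overlaps the antisense transcript Irx3os (D230002A01Rik) over 1653 bases. The study describes its RNA-seq kit as strand-specific, but whether the reads were counted by strand is not given in the sources used here, so the split of reads over this overlap is uncertain.

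Promoters of 3 members of the family had an entry in the RefSeq table of GRCm38.p6, which gives 250 bases before and 50 after a start. They are shown with CG dinucleotides in capitals, since CG is the letter pair that DNA methyltransferases modify. Irx2 is at chr13:72628570-72628869 on the plus strand, Irx4 at chr13:73260247-73260546 on the plus strand and Irx3 at chr8:91801605-91801904 on the minus strand, where the RefSeq start lies 413 bases from that of the expression table.
Irx2: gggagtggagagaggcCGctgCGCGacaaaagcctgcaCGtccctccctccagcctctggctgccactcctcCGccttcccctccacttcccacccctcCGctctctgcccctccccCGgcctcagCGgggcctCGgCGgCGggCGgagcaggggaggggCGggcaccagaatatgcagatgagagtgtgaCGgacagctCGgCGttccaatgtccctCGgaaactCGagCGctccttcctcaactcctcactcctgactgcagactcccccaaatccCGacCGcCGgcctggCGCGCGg
Irx4: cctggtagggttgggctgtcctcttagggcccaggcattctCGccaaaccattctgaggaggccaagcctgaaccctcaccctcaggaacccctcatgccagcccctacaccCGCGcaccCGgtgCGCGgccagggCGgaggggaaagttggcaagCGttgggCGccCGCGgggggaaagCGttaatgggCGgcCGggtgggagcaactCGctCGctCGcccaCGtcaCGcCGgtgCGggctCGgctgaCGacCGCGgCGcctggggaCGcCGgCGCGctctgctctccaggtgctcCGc
Irx3: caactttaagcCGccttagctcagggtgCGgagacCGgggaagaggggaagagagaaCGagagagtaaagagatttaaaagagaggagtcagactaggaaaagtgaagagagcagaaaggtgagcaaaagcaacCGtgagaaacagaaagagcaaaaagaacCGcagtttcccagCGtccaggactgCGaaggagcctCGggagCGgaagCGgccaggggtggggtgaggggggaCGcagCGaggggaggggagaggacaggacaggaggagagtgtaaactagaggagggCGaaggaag

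The promoter of Irx2 holds 25 CG and that of Irx4 holds 31, against a median of 7 in the 32851 promoters of the table. As many CG or more are found in 18.4% of these promoters for Irx2 and in 10.6% for Irx4. The promoter of Irx3 holds 14, a number reached by 36.3%. CG reads the same on both strands and overlaps no other motif searched. The promoter of Crnde, at chr8:92356071-92356370 on the minus strand, is shown because the region it shares with Irx5 carries several of the differences below. It holds 22 CG, a number reached by 23.1% of promoters.
Crnde: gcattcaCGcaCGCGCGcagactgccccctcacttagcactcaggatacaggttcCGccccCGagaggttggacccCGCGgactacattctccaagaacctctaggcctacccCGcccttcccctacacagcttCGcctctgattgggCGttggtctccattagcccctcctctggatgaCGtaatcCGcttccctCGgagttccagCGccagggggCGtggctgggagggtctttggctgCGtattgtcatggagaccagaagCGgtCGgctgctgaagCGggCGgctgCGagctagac

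Over the wider windows in which the marks were measured, from 1500 bases before to 500 after a start, all 6 promoters held more CpG sites than the median of 47 over 25952 genes. Irx2 had 168 sites, Irx5 159, Irx1 134, Irx4 97, Irx6 95 and Irx3 86. As many sites as in Irx2 were present in 1.35% of promoter windows, and as many as in Irx3 in 23.5%. The window of Crnde held 160 sites and overlaps that of Irx5, so that the promoter values of both genes share reads.

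The transcripts were scarce and their levels did not separate the genotypes. Expression is given in RPKM, reads scaled to the length of the exons and the size of the library. Irx5 stood at 1.29, 0.852, 0.622, 0.376 and 0.395 RPKM in +/+ replicates 1 to 5 and at 0.597, 0.396, 1.003 and 0.674 RPKM in Δ/D329A replicates 1 to 4. Irx3, its neighbour and like Irx5 a gene of heart and limb patterning, stood at 1.27, 0.668, 0.915, 0.325 and 0.256 RPKM in +/+ and at 0.541, 0.308, 0.949 and 0.615 RPKM in Δ/D329A. In both genes the highest and the lowest +/+ library enclosed the 4 Δ/D329A libraries.

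Irx1, a gene of neural, lung and limb development, was at 0.963, 0.539, 0.567, 0.435 and 0.275 RPKM in +/+ and at 0.633, 0.481, 0.698 and 0.530 RPKM in Δ/D329A. Irx2, which has overlapping domains of expression with Irx1 in the embryo, was at 0.564, 0.448, 0.319, 0.315 and 0.181 RPKM in +/+ and at 0.396, 0.319, 0.436 and 0.411 RPKM in Δ/D329A. Irx6, known from bipolar cells of the retina, was at 0.404, 0.114, 0.111, 0.0957 and 0.0880 RPKM in +/+ and at 0.162, 0.113, 0.112 and 0.240 RPKM in Δ/D329A. Apart from +/+ replicate 1, Irx6 rested on 4 to 9 reads a library. Irx4, a gene of the ventricular myocardium, had 0 reads in all 9 libraries, which allows up to 0.0641 to 0.112 RPKM (3 reads) depending on the depth of the library, for counting error only.

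On the log2 RPKM scale the differences, Δ/D329A minus +/+, were −0.05 for Irx3 (standard error 0.49), −0.00 for Irx5 (0.39), 0.15 for Irx6 (0.44), 0.18 for Irx1 (0.32) and 0.19 for Irx2 (0.30). limma called 0 of the 5 Iroquois genes tested, against 0.107% of the 17839 genes tested at an adjusted p under 0.01, and 0 of the 5 had an unadjusted p under 0.05. Of the genes tested, 1724 had no read in any library and passed the limit through the deposited floor of 0.9 reads, and with these left out, a fit chosen after seeing the data, 0 of 5 members and 0.0807% of 16115 genes were called. Their adjusted p lay between 0.8999 and 0.9992, and edgeR and DESeq2 also called 0. Irx4 was below the limit on low values and was not tested. In simulated libraries of this size the fit recovered 99% of genes changed 4-fold and 12% of genes changed 2-fold. A change of 2-fold in a single gene would thus mostly not have been called. The simulation gave all genes 1 spread and left the genes with the fewest reads unchanged, so these shares need not hold for the members. In the real libraries En2 differed by 2.29 (standard error 0.55) and was not called (limma adjusted p = 0.234).

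**Figure D1:**
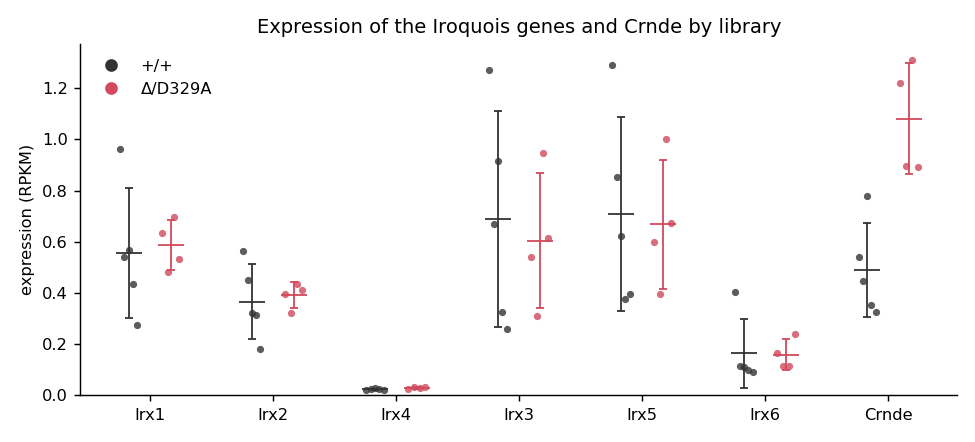
Expression in RPKM (linear axis) of the 6 Iroquois genes and Crnde in each of 5 +/+ and 4 Δ/D329A libraries, with the mean and SD of each genotype; Irx4, without a read, stands at the deposited floor of 0.9 reads. The genotypes overlap in all 6 Iroquois genes, while the Δ/D329A libraries of Crnde, from 0.893 to 1.31 RPKM, lie above the +/+ libraries, from 0.324 to 0.780 RPKM.

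In +/+ the order of the mean levels was Irx5 (0.708 ± 0.380 RPKM, SD, n = 5), Irx3 (0.688 ± 0.422), Irx1 (0.556 ± 0.255), Irx2 (0.365 ± 0.146), Irx6 (0.162 ± 0.135) and Irx4 (0 reads). RPKM is corrected for length, so these levels can be compared between genes. Neighbours in the order overlapped over the libraries except for Irx6 and Irx4. Within a library Irx1 was above Irx2 in 5 of 5, and Irx5 above Irx3 in 4 of 5.

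The levels of the 5 expressed members followed each other from library to library. Over the 9 libraries Pearson's r of their log2 RPKM ranged from 0.60 (Irx3 and Irx6) to 0.93 (Irx3 and Irx5, and Irx1 and Irx2). The members also followed the median expression of the library, with r from 0.73 for Irx6 to 0.91 for Irx1. After each library was centred on its median, r was 0.86 for Irx3 and Irx5, 0.82 for Irx1 and Irx2 and 0.32 for Irx3 and Irx6. These values describe 9 libraries that share depth and quality, and are given without a test.

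No member had 20 reads in every library, the limit set for naming genes of like pattern, and the limit was lowered to 9 reads after the values had been seen. Among 11406 genes, the highest r over the 9 libraries was with 2810405K02Rik, Rnf114 and Cebpa for Irx1 (0.99 each), and with Gzf1, Cyb5 and Nat9 for Irx2 (0.98 each). For Irx3 it was with Ank, Clp1 and RP23-142A14.3 (0.99 each), and for Irx5 with Brd3 (0.98), Zbtb5 (0.98) and 2810468N07Rik (0.97). The lists of the members do not share a gene. The levels were not centred on the median of the library, which these 4 members followed with r from 0.80 (Irx2) to 0.91 (Irx1). As the highest of 11406 values over 9 libraries, such r are high by selection. They are a description without a test, and do not show that a gene is specific to a member.

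The other TALE homeobox genes gave 0 called of 12 tested, with a median log2 difference of 0.19 against 0.06 over all genes tested. Mean levels were 3.55 RPKM in the wild type and 3.97 RPKM in Δ/D329A for Pbx2, and 2.80 and 2.59 RPKM for Meis3. Of 18 patterning genes of the forebrain and midbrain, 12 were tested and 0 called, with a median of 0.20. Fezf1 and Shh had log2 differences of 0.25 and −0.02. The list ranged from −0.59 for Fezf2 to 2.29 for En2.

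The tissue and its purity were read from marker lists. All 16 hypothalamic neuropeptide genes were expressed, led by Pmch, Oxt, Avp and Hcrt, and limma called 0 of them. Their median log2 difference was −0.04. The study, which used DESeq, lists Cartpt of these genes as downregulated. Here Cartpt had means of 28.3 RPKM in +/+ and 15.7 RPKM in Δ/D329A. Its log2 difference was −0.81, with a limma adjusted p of 0.355, so the absence of a call does not show that these genes were unchanged. The 8 thalamic markers had a median log2 difference of 0.70, 0 were called, and none was at 0. Their summed level was 84.6 to 138 RPKM in +/+ and 111 to 160 in Δ/D329A. Most of this sum came from Calb2 (means 53.8 and 63.7 RPKM) and Slc17a6 (36.9 and 36.1), the only marker that was lower. Tnnt1 had means of 0.696 RPKM in +/+ and 3.41 in Δ/D329A, Lhx9 0.519 and 1.22, Rora 6.12 and 10.6, and Tcf7l2 1.96 and 3.29. Of the medial habenula markers 5 of 7 were in the table, 4 were tested and 1 was called. This was the homeobox gene Pou4f1, at a mean of 0.0301 RPKM in +/+ and 0.948 RPKM in Δ/D329A (limma adjusted p = 0.000607). The other markers tested had log2 differences of 0.53 (Gpr151), −0.29 (Chrna3) and −0.63 (Tac1). The study reports Pou4f1 and Lhx9 as upregulated in Δ/D329A with a gain of DNA methylation, so these genes do not serve as markers of tissue alone. The summed level of the habenula markers was 13.6 to 30.7 RPKM in +/+ and 12.96 to 17.8 in Δ/D329A, most of it from Tac1 (means 22.6 and 14.2). In the lists for choroid plexus (7 tested), meninges (8), endothelium (6), ependyma and tanycytes (7), anterior pituitary (5), astrocytes (5), oligodendrocytes (6), microglia (6) and sex-linked genes (1), 0 were called. The sex-linked gene tested was Xist, at 13.9 to 24.0 RPKM over the libraries of both genotypes. The Y-linked genes Ddx3y, Eif2s3y, Kdm5d and Uty were below the limit on low values. Xist without these genes is the pattern of female mice, the sex that a legend of the study gives for the RNA-seq. The part of the thalamic signal in the results below was not tested.

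Crnde, the only other transcript of the chromosome 8 cluster at or above the limit on low values, was higher in every Δ/D329A library than in any +/+ library. It was at 0.541, 0.445, 0.780, 0.353 and 0.324 RPKM in +/+ and at 1.22, 0.898, 1.31 and 0.893 RPKM in Δ/D329A. The log2 difference was 1.20 (standard error 0.27), with a limma adjusted p of 0.209, which does not pass 0.01, and an exact permutation p of 0.0159. The adjusted p was 0.0368 by edgeR, 0.0158 by DESeq2 and 0.0325 after median centring, so that no fit called it. Irx5, from the same start region, differed by −0.00 in the same libraries. Crnde was chosen for its place in the cluster after its values were seen.

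Of 27 genes of the table within 500 kb of a cluster, 16 passed the limit for expression. CT025645.1 and Gm10263 among them had 0 reads in all 9 libraries, passed only through the deposited floor and could not be called. Of the other 14, 0 were called, with log2 differences from −0.05 (Rpgrip1l) to 1.20 (Crnde). Fto, the other neighbour of Irx3, had a difference of 0.13 and an adjusted p of 0.845.

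H3K27me3 covered all 6 promoters and did not separate the genotypes at any of them. Values of marks are library-scaled reads (RPM) in tiles of 2000 bases, averaged over the 2 tiles centred in a promoter. The +/+ means ran from 4.05 ± 0.64 RPM (SD, n = 3) at Irx5 through 4.25 ± 0.49 at Irx3, 4.38 ± 0.07 at Irx2, 4.99 ± 0.81 at Irx6 and 5.02 ± 0.55 at Irx1 to 5.54 ± 0.33 at Irx4, and neighbours in this order overlapped. Irx4, the gene without reads, thus had the highest mean of the mark. Input at the same promoters lay between 0.377 and 1.27 RPM. Both ends of this range were at Irx4, with 0.782, 0.880 and 0.377 RPM in +/+ and 1.01, 1.03 and 1.27 RPM in Δ/D329A, without overlap.

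The Δ/D329A means were 3.14 ± 0.31 RPM (SD, n = 3) at Irx5, 4.35 ± 0.73 at Irx3, 4.12 ± 0.45 at Irx2, 5.41 ± 0.35 at Irx6, 4.82 ± 0.31 at Irx1 and 5.40 ± 0.17 at Irx4. limma called 0 of 6, against 1.7% of the 12891 promoters tested at an adjusted p under 0.05, and the other tools and settings also called 0. The widest difference was at Irx5, with 4.56, 3.33 and 4.26 RPM in +/+ and 2.82, 3.44 and 3.15 RPM in Δ/D329A, a log2 difference of −0.35 (adjusted p = 0.390, unadjusted p = 0.0418 by limma). Its groups overlapped in 1 library, Δ/D329A replicate 2. The other 5 lay between −0.09 and 0.13.

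At the promoter of Crnde, next to that of Irx5, H3K27me3 fell. It was at 4.15, 2.97 and 3.69 RPM in +/+ and at 1.65, 2.37 and 2.08 RPM in Δ/D329A, so that the groups were apart. The log2 difference was −0.80 (standard error 0.19) with an adjusted p of 0.0190. The call was lost without the filter on low values (0.407), over input (0.172), by edgeR (0.1003), without a trend in the variance (0.164), and without +/+ replicate 1 (0.140), +/+ replicate 3 (0.0802), Δ/D329A replicate 1 (0.158) or Δ/D329A replicate 3 (0.0687). Among the other neighbours 0 of 20 promoters tested were called for this mark.

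**Figure D2:**
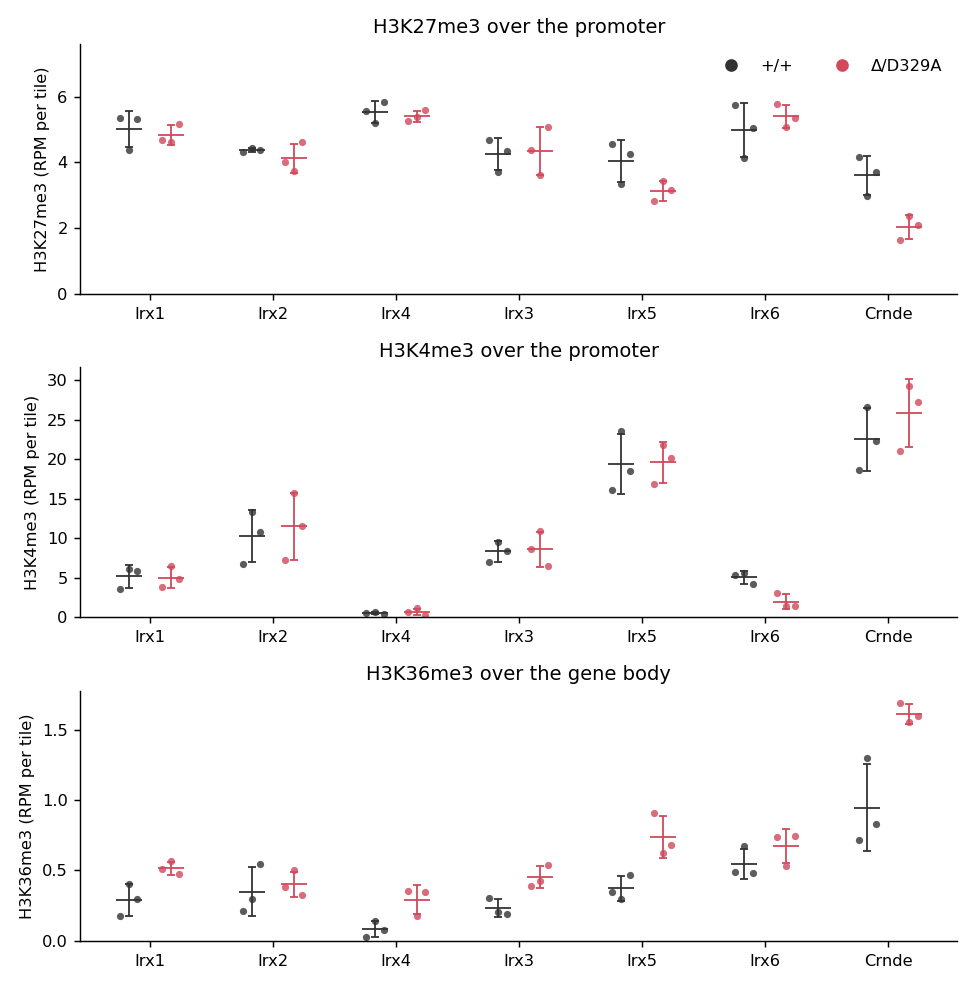
H3K27me3 and H3K4me3 over promoters and H3K36me3 over gene bodies, in RPM per tile (linear axes), for the 6 Iroquois genes and Crnde in 3 +/+ and 3 Δ/D329A libraries, with the mean and SD of each genotype. The genotypes are apart for H3K27me3 at Crnde, for H3K4me3 at Irx6, and for H3K36me3 at Irx1, Irx4, Irx3, Irx5 and Crnde.

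Domains of H3K27me3 around the starts were measured as the run of tiles at or above 4 times the median autosomal tile of the library. In +/+ their mean widths were 32.0 kb at Irx1, 32.0 kb at Irx2, 31.7 kb at Irx4, 20.7 kb at Irx3, 35.7 kb at Irx5 and 21.0 kb at Irx6, and the genotypes overlapped at all 6. At Irx5 the width was 39, 30 and 38 kb in +/+ and 24, 30 and 35 kb in Δ/D329A (exact permutation p = 0.3, two-sided). At 6 times the median the domain of Irx5 was 18, 12 and 21 kb in +/+ and 3, 3 and 4 kb in Δ/D329A, and at 3 times the median 42, 42 and 48 kb against 26, 36 and 40 kb. Both of these were apart, with an exact permutation p of 0.1, the smallest that 3 against 3 allow. The domains of the other 5 overlapped at all 3 thresholds.

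Over gene bodies, a comparison added after the data had been seen, H3K27me3 was called in 0 of 6 members, against 0.14% of the 11433 bodies tested. Irx2 was at 6.27, 4.68 and 5.33 RPM in +/+ and at 3.90, 3.71 and 4.21 RPM in Δ/D329A, apart, with a log2 difference of −0.44 and an adjusted p of 0.258. Irx6 was apart in the other direction, at 4.57, 3.52 and 3.99 RPM in +/+ and 4.81, 4.58 and 5.39 RPM in Δ/D329A, with a difference of 0.29 and an adjusted p of 0.435. Over input this difference of Irx6 was −0.00. The body of Crnde was at 2.07, 1.71 and 2.22 RPM in +/+ and at 0.832, 1.43 and 1.29 RPM in Δ/D329A, with a log2 difference of −0.73 and an adjusted p of 0.253.

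H3K4me3 differed widely between the 6 promoters in the wild type. Irx5 held 19.4 ± 3.8 RPM (SD, n = 3), apart from Irx2 with 10.3 ± 3.3 and Irx3 with 8.37 ± 1.30, which overlapped each other. Irx1 (5.19 ± 1.43) and Irx6 (5.06 ± 0.79) overlapped, and lay apart from Irx3 above them and from Irx4, with 0.597 ± 0.136, below. The mark stood 33.2 times over input at Irx5 and 5.90 times at Irx6, and at Irx4 it was at 0.940 times input. The median autosomal tile of the mark was 0.131 to 0.200 RPM in the same libraries, so that H3K4me3 at Irx4, although the lowest of the 6, lay above the median of the genome. H3K27me3 at Irx4 stood 9.52 ± 5.24 times over input in +/+ and 4.94 ± 0.47 times in Δ/D329A (SD, n = 3 each). The highest ratio was 15.5, and the lowest input there was that of +/+ replicate 3, at 0.377 RPM.

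Between the genotypes, H3K4me3 fell at the promoter of 1 member, Irx6. It was at 5.31, 5.69 and 4.17 RPM in +/+ and at 3.10, 1.42 and 1.42 RPM in Δ/D329A, and the groups were apart. Input there was 0.765 to 0.986 RPM in +/+ and 0.737 to 0.894 RPM in Δ/D329A. The log2 difference was −1.39 (standard error 0.27) with an adjusted p of 8.92e-05 by limma. limma called 1 of 6 members, against 1.68% of the 16483 promoters tested.

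In this fit the prior degrees of freedom were infinite, so that limma took the spread of a promoter from all promoters of like level and gave its own libraries no weight. The call for Irx6 was lost without the filter on low values (adjusted p = 1, prior degrees of freedom 1.55), with each library centred on its median (0.294, prior degrees of freedom 5.68) and by edgeR (0.532, log2 difference −1.04). It was kept without each library in turn, with log2 differences from −1.75 to −1.21, over input and in a wider window. The library of Δ/D329A replicate 1 has the highest background of this mark, with a median tile of 0.376 RPM against 0.129 to 0.200 RPM in the other 5, and without it the difference was −1.75. An exact permutation test of the 3 against 3 values gave p = 0.1, the smallest possible. The level of Irx6 mRNA did not separate the genotypes.

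The other 5 promoters had log2 differences of H3K4me3 between −0.03 (Irx1) and 0.14 (Irx2), with an adjusted p of 0.9999 each. At Irx5 the values were 16.2, 23.6 and 18.5 RPM in +/+ and 16.8, 21.9 and 20.1 RPM in Δ/D329A. At Irx3 they were 7.02, 9.61 and 8.47 RPM in +/+ and 8.62, 10.9 and 6.45 RPM in Δ/D329A. At Irx2 they were 6.77, 13.4 and 10.8 RPM in +/+ and 7.24, 15.8 and 11.6 RPM in Δ/D329A. In these 3 genes the spread between animals of a genotype was wider than the difference between the genotypes.

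Behind the starts the picture was different, in a comparison over gene bodies added after the data had been seen. H3K4me3 over the body of Irx3 was at 10.9, 15.3 and 11.4 RPM in +/+ and at 9.30, 9.55 and 6.86 RPM in Δ/D329A. Over Irx5 it was at 11.6, 16.9 and 11.1 RPM in +/+ and at 9.24, 8.20 and 4.41 RPM in Δ/D329A. Over Irx6 it was at 1.93, 2.17 and 1.93 RPM in +/+ and at 1.40, 0.579 and 0.473 RPM in Δ/D329A. The 3 genes of the chromosome 8 cluster were thus lower without overlap, as in 6.69% of the 14506 bodies tested, and Irx1 and Irx2 overlapped.

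The log2 differences of the bodies were −0.54 for Irx3 (adjusted p = 0.660), −0.89 for Irx5 (0.505) and −1.33 for Irx6 (0.155), and those of Irx1 and Irx2 were −0.29 and −0.54. limma called 0 of 5 members tested, against 0.317% of bodies. Without Δ/D329A replicate 1 it called 1. With the replicate number as a block it called 2, Irx5 and Irx6, against 3.81% of all bodies in that fit. Whether the numbers pair the animals is not given. Irx4 was below the limit on low values.

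**Figure D3:**
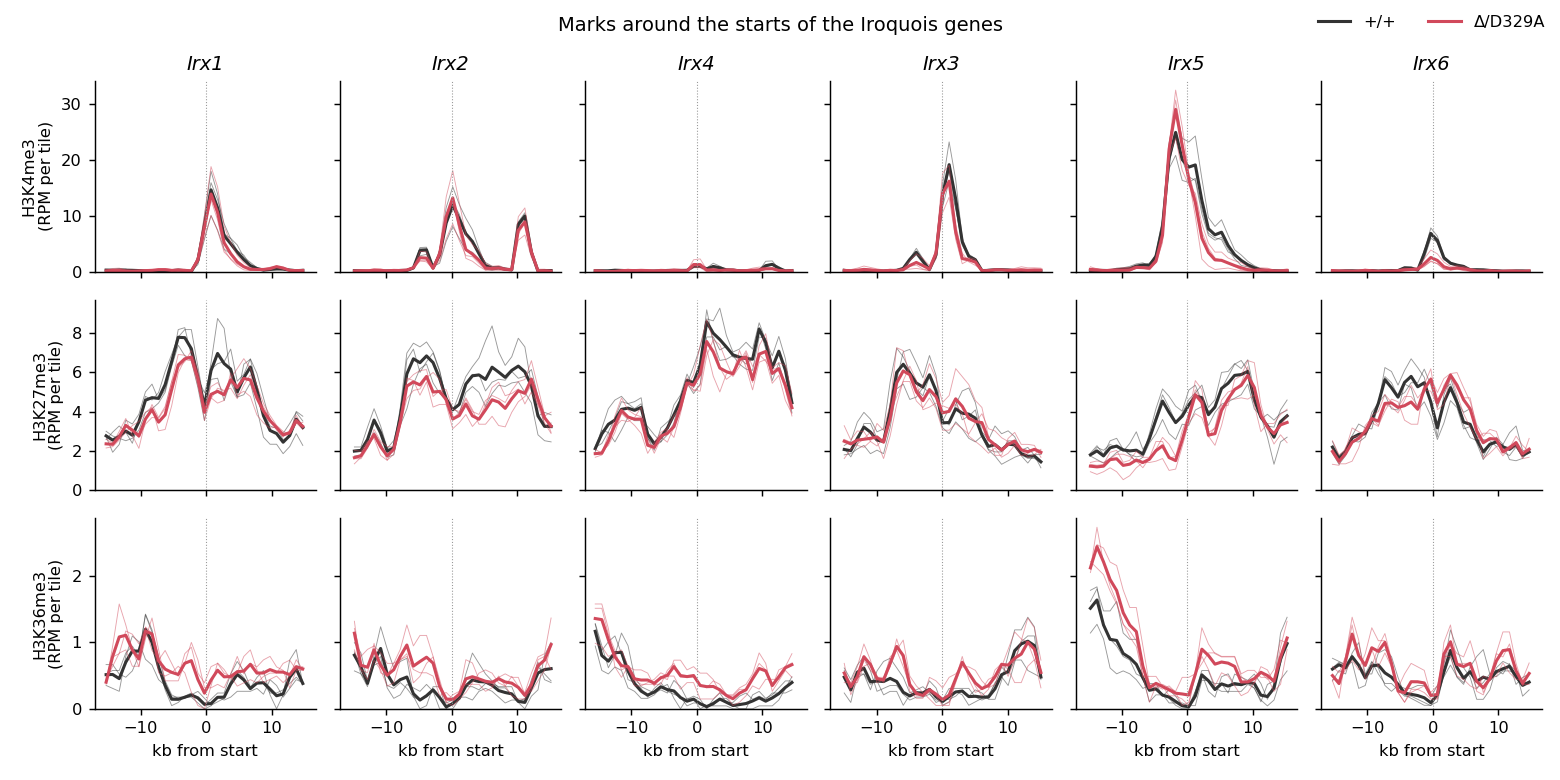
H3K4me3, H3K27me3 and H3K36me3 in RPM per tile within 15 kb of the start of each Iroquois gene, with the direction of transcription to the right; thick lines are means and thin lines the 3 libraries of a genotype, and each mark has 1 axis over all genes. H3K4me3 of Δ/D329A runs below +/+ at the start of Irx6 and behind the start of Irx5, H3K27me3 runs below before the start of Irx5, where Crnde begins, and H3K36me3 runs above over Irx4 and before the start of Irx5.

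Tile by tile, H3K4me3 was lower in 5 of 48 tiles tested in the chromosome 8 cluster, against 0.303% of the 156107 tiles tested over the genome, and in 0 of 40 in the chromosome 13 cluster. A cluster was taken with 100 kb on each side. Adjacent tiles at chr8:92362001-92364000 and chr8:92364001-92366000 lie 5.20 and 7.20 kb behind the start of Irx5, past the end that the expression table gives the gene and inside the longer Irx5 of GENCODE vM21. The first was at 5.76, 9.31 and 6.17 RPM in +/+ and at 3.51, 2.05 and 0.516 RPM in Δ/D329A, a log2 difference of −2.06 (adjusted p = 0.00223). The second differed by −1.60 (adjusted p = 0.0255). They hold 77 and 81 CpG sites.

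A further pair of tiles, at chr8:92674001-92676000 and chr8:92676001-92678000, lies in the first part of Irx6, with differences of −1.53 and −1.54 (adjusted p = 0.00817 and 0.0372). The fifth, at chr8:91712001-91714000, lies 89.1 kb behind the start of Irx3 on a long non-coding RNA, Gm36325, and was at 5.38, 4.66 and 5.98 RPM in +/+ and at 1.57, 3.71 and 1.42 RPM in Δ/D329A (−1.35, adjusted p = 0.0363). At an unadjusted p under 0.05, 15 of 48 tiles of chromosome 8 and 10 of 40 of chromosome 13 were lower, against 4.27% of the genome, and 2 tiles of each cluster were higher, against 2.29% of the genome. Adjacent tiles of a peak come from the same animals and are not independent. The count of 5 was 0 without Δ/D329A replicate 3, 1 without +/+ replicate 2, 8 without Δ/D329A replicate 1, and 7 without Δ/D329A replicate 2, where 1 more tile was called higher and 1.19% of the genome was called lower.

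Among the neighbours, H3K4me3 fell in the promoter window of Irx3os, whose start in the table lies 1652 bases behind that of Irx3, inside Irx3 and on the other strand. The window lies within the body of Irx3, so that this value and that of the body of Irx3 share reads, and the RefSeq start of Irx3os is 2921 bases away. It was at 8.28, 11.3 and 8.08 RPM in +/+ and at 5.83, 4.77 and 3.61 RPM in Δ/D329A (log2 difference −0.95, standard error 0.23, adjusted p = 0.00451). The call was lost without the filter on low values, with median centring, in the wider window (−0.37), by edgeR, and without +/+ replicate 1, +/+ replicate 2 or Δ/D329A replicate 3. Irx3os had 0 to 6 reads a library and was not tested for expression. Slc6a3, the dopamine transporter gene outside the chromosome 13 cluster, was also called (−1.17, adjusted p = 0.00435), and 14 other neighbours tested were not.

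H3K36me3 was low over the Iroquois genes, and its values were higher in Δ/D329A over the bodies of 4 of 6. In +/+ the mean over bodies ranged from 0.0823 RPM at Irx4 to 0.547 RPM at Irx6, below the input of the same bodies. Irx5 was at 0.350, 0.300 and 0.471 RPM in +/+ and at 0.909, 0.623 and 0.682 RPM in Δ/D329A. Irx1 was at 0.175, 0.403 and 0.297 RPM in +/+ and at 0.511, 0.565 and 0.472 RPM in Δ/D329A. These genes were apart between the genotypes, and so was the input of Irx1, at 0.607 to 0.796 RPM in +/+ and 0.868 to 0.922 RPM in Δ/D329A.

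Irx3 was at 0.306, 0.205 and 0.192 RPM in +/+ and at 0.390, 0.426 and 0.542 RPM in Δ/D329A. Irx4 was at 0.0293, 0.142 and 0.0762 RPM in +/+ and at 0.357, 0.175 and 0.344 RPM in Δ/D329A. With Irx1 and Irx5, 4 of 6 bodies were higher without overlap, as in 7.14% of 23657 bodies, each with an exact permutation p of 0.1. Only Irx5 and Irx6 passed the limit on low values, and limma called 0 of these 2 and 0% of the 17055 bodies tested, of which 2937 had an unadjusted p under 0.05, while edgeR called 49 bodies and 0 members. The log2 differences were 0.82 for Irx5 (standard error 0.18, adjusted p = 0.227) and 0.25 for Irx6 (adjusted p = 0.451). The difference of Irx5 was 0.50 over input.

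The body of Crnde carried more of the mark than any member, at 0.715, 1.30 and 0.827 RPM in +/+ and at 1.69, 1.55 and 1.60 RPM in Δ/D329A. The log2 difference was 0.75 (standard error 0.18), with an adjusted p of 0.227 by limma and 0.00237 by edgeR. In Δ/D329A, Crnde thus had more RNA and more H3K36me3 over the body without overlap. No fit called the RNA, and limma did not call the H3K36me3. H3K27me3 at the promoter was called lower, a call lost over input, by edgeR and without some of the single libraries. H3K4me3 at its promoter overlapped, at 18.6, 26.6 and 22.4 RPM in +/+ and 21.1, 29.3 and 27.2 RPM in Δ/D329A. The RNA and the marks come from different animals, of different sex where the RNA-seq mice are taken as female, and their relation was not tested.

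In the tiles, H3K27me3 was called lower in 2 of 535 of the chromosome 8 cluster and in 1 of 727 of the chromosome 13 cluster, against 0.0404% of the 770430 tiles tested in either direction. Both of chromosome 8 lie in Crnde. The tile chr8:92354001-92356000, at its start, was at 4.78, 2.88 and 4.21 RPM in +/+ and at 1.01, 1.64 and 2.34 RPM in Δ/D329A (−1.25, adjusted p = 0.00733), and that at chr8:92330001-92332000, near its end, differed by −1.36 (adjusted p = 0.0379). H3K36me3 was called higher in 1 of 368 tiles of chromosome 8, against 0.00397% of the 756402 tiles tested, at chr8:92340001-92342000 in Crnde, where it was at 1.05, 2.18 and 0.994 RPM in +/+ and at 2.87, 3.44 and 2.31 RPM in Δ/D329A (1.05, adjusted p = 0.0210), and in 0 of 568 of chromosome 13.

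The tile of chromosome 13, chr13:72298001-72300000, lies between Irx1 and Irx2, with no gene of GENCODE vM21 and 39 CpG sites. H3K27me3 there was at 8.18, 6.73 and 6.89 RPM in +/+ and at 3.29, 4.09 and 3.96 RPM in Δ/D329A, a log2 difference of −0.93 (adjusted p = 0.00141). The level in +/+ was above the mean of each of the 6 promoters. The call was lost without +/+ replicate 1. Of the calls of chromosome 8, between 0 and 3 for H3K27me3 and between 0 and 2 for H3K36me3 were made when a library was left out.

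**Figure D4:**
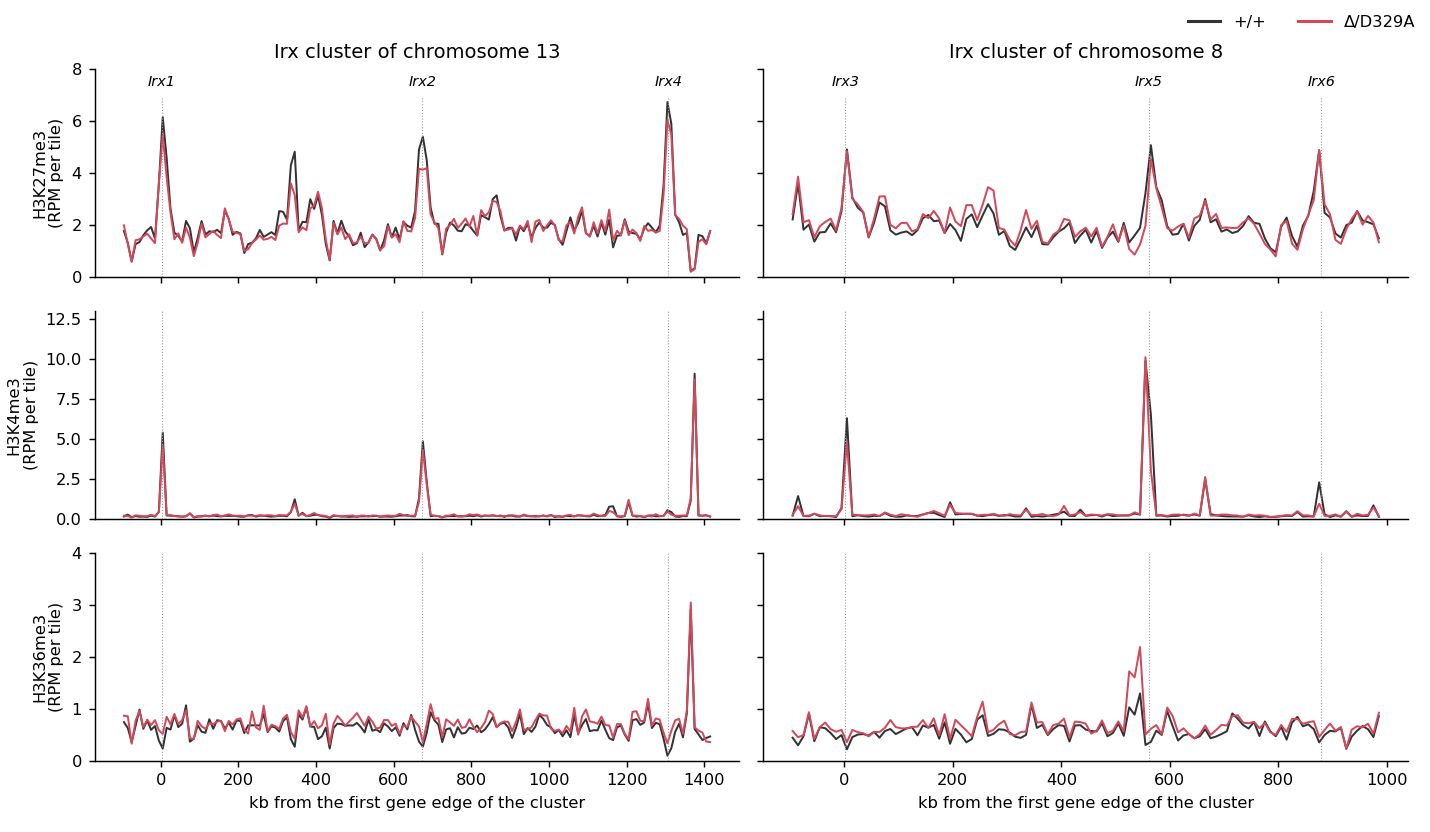
Mean H3K27me3, H3K4me3 and H3K36me3 in RPM per tile, in bins of 10 kb, along both Irx clusters with 100 kb on each side, as the mean of the 3 libraries of a genotype; the x axis is the distance from the first gene edge in kb, and dotted lines mark the middle of each Iroquois gene. H3K27me3 rises at each of the 6 genes in both genotypes, H3K4me3 peaks at 5 of them and is low at Irx4, and H3K36me3 lies higher in Δ/D329A before Irx5, over Crnde.

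Over whole clusters, H3K27me3 and H3K4me3 overlapped between the genotypes. H3K27me3 was at 2.12, 1.80 and 2.12 RPM in +/+ and at 1.87, 1.96 and 1.99 RPM in Δ/D329A over 1512 tiles of chromosome 13. Over 1082 tiles of chromosome 8 it was at 2.10, 1.80 and 2.19 RPM in +/+ and at 1.92, 2.13 and 2.30 RPM in Δ/D329A. The exact permutation test gave p = 0.6 for each.

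H3K36me3 lay higher in Δ/D329A over both clusters without overlap. On chromosome 13 it was at 0.648, 0.666 and 0.6255 RPM in +/+ and at 0.769, 0.682 and 0.746 RPM in Δ/D329A, a log2 difference of 0.18, and on chromosome 8 at 0.553, 0.603 and 0.588 RPM in +/+ and at 0.702, 0.633 and 0.700 RPM in Δ/D329A, a difference of 0.22. The exact permutation p was 0.1 for each, the smallest possible, and 0.3 adjusted over 6 values. The median autosomal tile of this mark was also higher in each Δ/D329A library, at 0.577 to 0.590 RPM against 0.523 to 0.569 RPM. Divided by it, the differences were 0.10 (p = 0.3) and 0.14 (p = 0.2 by the exact permutation test). Input differed by −0.01 on chromosome 13 and, without overlap, by 0.04 on chromosome 8.

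At an unadjusted p under 0.05, H3K36me3 was higher in 48 and lower in 4 of 568 tiles of chromosome 13, and higher in 35 and lower in 1 of 368 tiles of chromosome 8. Over the genome 2.74% of tiles were higher and 3.94% lower at this threshold. The 2 clusters were compared within each library by their log2 ratio. The change of this ratio from +/+ to Δ/D329A was 0.11 for H3K27me3 (exact permutation p = 0.2), −0.11 for H3K4me3 (p = 0.3) and 0.04 for H3K36me3 (p = 0.5), so that no difference between the clusters could be shown with 3 animals a genotype.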

How the data were processed

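Processed tables of the adult hypothalamus were used, and all other libraries were not used here. The authors deposited RNA-seq values as log2 RPKM per gene, made with SeqMonk from HISAT2 alignments to GRCm38, in which 0.9 reads stand in place of none. For ChIP-seq the deposited signal is reads per tile of 2000 bases every 1000 bases, corrected for library size, without input subtracted. The submitters' processing notes name HISAT2 2.0.5, Bowtie2 2.3.2, Trim Galore 0.4.3 and Bismark 0.19.0. The authors excluded 1 more mutant RNA library from their table.

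Whole reads were recovered within 0.02 reads for 99.992% of genes and for 100% of tile values, and used for edgeR and DESeq2. Libraries held 10519195 to 18386072 reads for RNA-seq, and 12676361 to 15944966 for H3K4me3, 14874942 to 26178088 for H3K27me3, 19056381 to 22850001 for H3K36me3 and 14708935 to 30207875 for input. At these depths a median tile held 2 to 6 reads for H3K4me3, 9 to 17 for H3K27me3 and 10 to 13 for H3K36me3.

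Expression was compared with limma 3.58.1 (R 4.3.3), with a trend of the variance on the mean, without mitochondrial genes and with a limit of 0.1 RPKM that 4 or more libraries had to reach, at a Benjamini-Hochberg adjusted p under 0.01. For marks, limma was run on the mean tile value, as log2 after adding 0.1 RPM, over promoters (1500 bases before to 500 after the start), gene bodies (from 500 bases after the start) and non-overlapping tiles with a mean of at least 0.5 RPM, at an adjusted p under 0.05. Tests are two-sided, and exact permutation tests cannot give a p under 0.1 for 3 against 3 or under 0.00794 for 5 against 4. Groups are called apart where their libraries do not overlap. The share of all features apart was counted for H3K36me3 and H3K4me3 over bodies only. edgeR 4.0.16 and DESeq2 1.42.0 were alternatives, beside other pseudocounts, filters, scalings and windows, leaving out each library and blocks. Tables were made with Python 3.11.15, numpy 2.4.6 and pandas 2.3.3.

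The genes named are the 6 members, genes within 500 kb of a cluster, the 3 genes of most like pattern and, of each list, those called or the 3 with the highest level. Some genes that this rule names are not reported here. The lists are other TALE genes, patterning genes and markers of the cell types named in the text. Members and lists were chosen with earlier results of these data known. Simulated data held 100 changes of 2-fold and 100 of 4-fold. Of the 2-fold changes, the promoter fit recovered 57% for H3K27me3 over 12891 promoters and 98% for H3K4me3 over 16481. The body fit recovered 97% for H3K36me3 over 16622 bodies, with 24 false calls. Each simulation used a common dispersion for all features, of 0.0164, 0.00249 and 0.00269 in this order. In the real libraries the body fit of H3K36me3 called 0 of 17055 bodies. Irx5, with a log2 difference of 0.82, was among those not called. These shares therefore need not hold for the real data.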

Additional observations from a re-analysis of the deposited data

Results flagged for a closer look

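Irx6 expression in +/+ replicate 1 was 0.404 RPKM, far from the other 4 +/+ libraries at 0.0880 to 0.114 RPKM, by Dixon's criterion for 5 samples. Chance alone sets apart about 1 such group in 20, and 5 expressed members were examined in each genotype. The same library was also the highest of its genotype for Irx1, Irx2, Irx3 and Irx5. Without it the log2 difference of Irx6 was 0.55 in place of 0.15, and 0 of the Iroquois genes were called.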

How the results depend on the processing

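For expression, Irx6 changed sign with 1 RPKM added before the log (−0.0014), by edgeR (−0.048) and by DESeq2 (−0.011). For H3K27me3 at promoters, Irx3 changed sign with median centring (−0.057), over input (−0.11) and by edgeR (−0.15), Irx6 by edgeR (−0.15) and Irx2 over input (0.033). For H3K4me3 at promoters, Irx3 changed sign over input (−0.11) and in the wider window (−0.27), Irx5 (−0.13), Irx2 (−0.051) and Irx4 (−0.020) in the wider window, Irx1 with median centring (0.060) and by edgeR (0.12), and Irx4 over input (−0.57) and by edgeR (−0.67). A further fit took as a block 2 sets of ChIP-seq animals, split at the widest gap in mitochondrial coverage (log scale) of their H3K4me3 libraries. With it, Irx5 (−0.017) and Irx2 (−0.036) changed sign. No label names such a batch, and in input the highest coverage, 83.0 RPM per tile, was that of +/+ replicate 1, of the lower set. Over bodies, Irx6 changed sign over input for H3K36me3 (−0.036) and H3K27me3 (−0.0018). None of these differences was called in any setting. Widths of H3K27me3 domains changed sign at 3 times the median tile for Irx1 (−0.667 kb), Irx3 (1 kb) and Irx6 (−4.67 kb), and at 6 times for Irx1 (−2.67 kb), Irx4 (0.667 kb), Irx3 (1.67 kb) and Irx6 (−0.333 kb). The number of members called for H3K4me3 at promoters was 0 without a filter, with median centring and by edgeR, and 3 tiles of chromosome 8 were called for H3K36me3 with 0.5 RPM added. The causes were not tested.

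Labels number the replicates without saying that the numbers pair the animals. Same-numbered libraries correlated at 0.14, −0.05, −0.05 and −0.05 in their deviations for expression. For the marks they correlated between −0.0638 and 0.284, with at least 1 pair under 0.1 in each comparison. For H3K27me3 at promoters the values were 0.11, 0.07 and 0.04, all positive. Such correlations cannot decide whether the animals are paired. With the replicate block, which leaves +/+ replicate 5 without a partner, Irx1 and Irx2 differed by −0.046 and −0.042, members called for H3K4me3 over bodies numbered 2, and the number of called members did not change for the other marks and for expression.

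Leaving out each library in turn moved the log2 differences of expression from −0.34 to 0.23 for Irx3, from −0.22 to 0.25 for Irx5, from −0.077 to 0.55 for Irx6, from −0.046 to 0.41 for Irx1 and from −0.042 to 0.37 for Irx2. Those of H3K27me3 at promoters moved from −0.089 to 0.15 for Irx3 and from −0.078 to 0.0065 for Irx4, and over the body of Irx3 from −0.063 to 0.33. Those of H3K4me3 at promoters moved from −0.15 to 0.22 for Irx3, −0.10 to 0.17 for Irx5, −0.28 to 0.14 for Irx1, −0.13 to 0.44 for Irx2 and −0.26 to 0.47 for Irx4. Cluster means moved from −0.019 to 0.13 for H3K27me3 of chromosome 8 and from −0.22 to 0.13 for H3K4me3 of chromosome 13. Domain widths moved from −1.50 to 2.50 kb for Irx1, −7.50 to 2 kb for Irx4 and −3.33 to 1.67 kb for Irx3. Members called for H3K4me3 over bodies numbered 0 to 1. Tiles called numbered 0 to 8 on chromosome 8 and 0 to 4 on chromosome 13 (4 without Δ/D329A replicate 2) for H3K4me3, 0 to 3 and 0 to 1 for H3K27me3, and 0 to 2 on chromosome 8 for H3K36me3.

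Over the settings run, the number of all features called ranged from 11 to 246 for expression, 0 to 470 for H3K27me3 and 0 to 629 for H3K4me3 at promoters, and over bodies 0 to 49 for H3K36me3, 0 to 552 for H3K4me3 and 1 to 64 for H3K27me3. With 2 to 6 reads in a median tile of H3K4me3 and 4 to 65 reads per library for expressed members, small differences were beyond the depth.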
